A study of Homo sapiens with 40 samples.

Results

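The comparison described here was between total RNA of 2 BEAS-2B lines after IL-13, 10 of the 40 libraries of the series, chosen by their labels for fraction, treatment and line. BEAS-2B is an immortalised human bronchial epithelial line. Per the labels, 1 line carried a constitutive control hairpin (shControl) and the other a constitutive hairpin against IGF2BP3 (shIGF2BP3). Both were grown in RPMI with 10% FBS, starved in 2% medium overnight, given IL-13 at 100 ng/ml and harvested after 24 h. Each group had 5 libraries. The sample titles call the lines siC and siIGF2BP3 although the protocol describes hairpins, and the groups here follow the genotype label. Each hairpin was carried by 1 line, so an effect of the hairpin and a difference between lines of another origin cannot be told apart. The other 30 libraries were unstimulated total RNA and polysome RNA of the same lines. The labels do not say that the 5 libraries of a group came from separate cultures, so p-values measure the spread between these libraries, which may be technical.

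IGF2BP3 belongs to a family of cytoplasmic RNA-binding proteins, with IGF2BP1 and IGF2BP2, that bind mRNAs, many of them carrying N6-methyladenosine, and are known for prolonging the life of their target mRNAs and for affecting their translation. IL-13 is a type 2 cytokine of allergic airway inflammation. It binds the IL13RA1 and IL4R receptor chains, which act through Janus kinases and the transcription factor STAT6, and in airway epithelium it induces genes such as the chemokine CCL26 and the feedback inhibitors SOCS1 and CISH.

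Total RNA libraries, called input, held 28083241 ± 7531239 estimated counts (SD, n = 5) in the control line with IL-13 and 24677495 ± 6984065 (SD, n = 5) in the line labelled knockdown, between 14044352 and 40441061 per library. Line markers were present (mean of 1040 TPM for KRT8, 717 TPM for KRT18 and 1120 TPM for VIM in control libraries), while EPCAM, CDH1, TP63 and KRT5 stayed under 1 TPM in every library and the leukocyte markers PTPRC and CSF1R were at 0. The 10 leukocyte markers summed to 30.2 to 49.3 TPM in control and 41.8 to 62.0 TPM in knockdown libraries, held by CD14, CD68 and CD74, and their part in the results was not tested. Per the labels the RNA was selected for poly(A) tails, and small structured RNAs, most of which lack such a tail, set 3 control libraries apart. The 5001 genes annotated as snRNA, snoRNA, scaRNA, rRNA, miscellaneous RNA or ribozyme took 0.796%, 0.419% and 0.208% of the counts in control replicates 1, 3 and 5. They took 0.0207% and 0.0248% in control replicates 2 and 4, and between 0.0165% and 0.0540% in the 5 knockdown libraries. RN7SK, the RNA of a transcription-regulating particle, measured 825, 310 and 136 counts per 1000000 of the TMM-scaled library total (CPM) in those 3 control libraries and 12.6 to 33.3 CPM in the other 7. The comparison was therefore also fitted on 17 input libraries without those 3, which leaves 2 control libraries. Some values of that fit are given beside the results.

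IGF2BP3, the target of the hairpin, measured 34.6, 44.8, 44.5, 30.5 and 30.8 CPM in the control line and 18.6, 27.5, 37.2, 24.6 and 27.0 CPM in the line labelled knockdown. The groups overlapped, since knockdown replicate 3 lay above control replicates 1, 4 and 5. The mean went from 37.1 ± 7.11 to 27.0 ± 6.72 CPM (SD, n = 5), a change of -27.2%. The difference on the log2(CPM + 1) scale was -0.46, with a two-sided exact permutation p of 0.0476, or 0.0714 when adjusted over the 3 such tests of the family, and edgeR's adjusted p over all genes was 0.679. Without knockdown replicate 3, the knockdown library with the most IGF2BP3, the difference was -0.58, with an adjusted exact p of 0.0119. Leaving out any other single library gave -0.34 to -0.52, with an adjusted exact p between 0.0714 and 0.155. On the deposited TPM values it was -0.19 with an exact p of 0.452. Without IL-13, IGF2BP3 measured 37.0 ± 11.5 and 26.1 ± 3.11 CPM (SD, n = 5), also with overlap, a log2 fold change of -0.51 with an edgeR unadjusted p of 0.0197 and an adjusted p of 0.609. The line difference with IL-13 minus that without was 0.05 (edgeR interaction, unadjusted p = 0.857, adjusted p = 1.00). IGF2BP3 was thus lower on average in the line labelled knockdown in both treatments, but did not pass the adjusted tests over all 5 libraries a group, and directions below are those of the line labelled knockdown.

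IGF2BP2, a paralog, measured 74.6, 64.4, 69.1, 67.9 and 56.9 CPM in the control line and 77.7, 106, 105, 86.9 and 94.3 CPM in the knockdown line. All 5 knockdown libraries lay above all 5 control libraries. The difference of 0.49 on the log2(CPM + 1) scale had an exact permutation p of 0.00794, the smallest that 5 against 5 libraries allow, and 0.0238 after adjustment over the 3 tests. Among all genes it was not called (edgeR adjusted p = 0.108). IGF2BP1, at 7.13 ± 3.30 and 6.55 ± 1.70 CPM (SD, n = 5), overlapped between the lines (exact permutation p = 0.881). Per length, the order in control libraries was IGF2BP2 with 23.1 TPM, IGF2BP3 with 9.56 TPM and IGF2BP1 with 1.41 TPM. In unstimulated libraries IGF2BP2 averaged 72.8 CPM in the control line and 88.3 CPM in the knockdown line, with overlap. Its log2 fold change there was 0.28 (edgeR unadjusted p = 0.0232, adjusted p = 0.65). The line difference of IGF2BP2 with IL-13 minus that without was 0.22 (edgeR interaction, unadjusted p = 0.186).

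**Figure D1:**
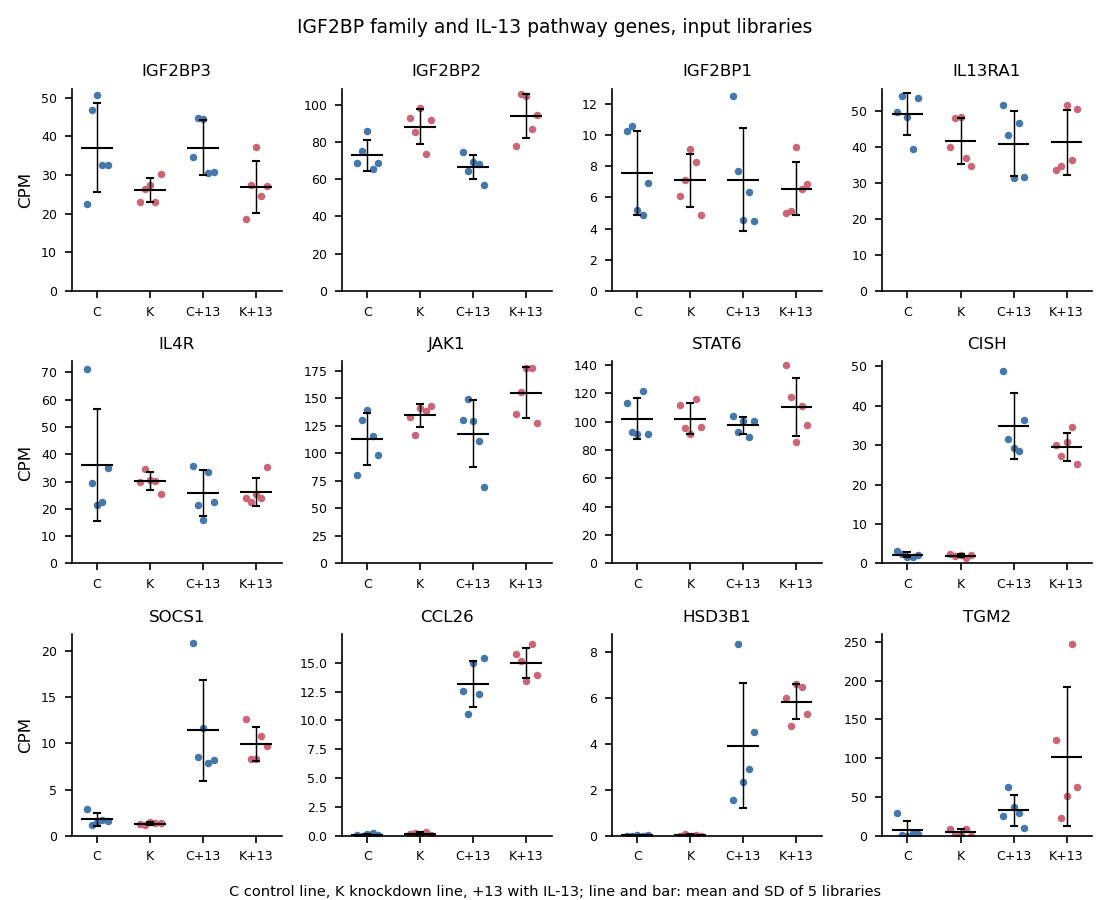
CPM of the IGF2BP family and of IL-13 pathway genes in the 20 input libraries; each point is 1 library, C is the control line, K the knockdown line and +13 marks IL-13, and the line and bar are the mean and SD of 5 libraries. With IL-13, IGF2BP3 overlaps between the lines (37.1 against 27.0 CPM) and IGF2BP2 does not, while CISH, SOCS1 and CCL26 are high with IL-13 in both lines.

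Of 16044 genes tested, 23 differed between the lines with IL-13 at an adjusted p under 0.05 (edgeR's quasi-likelihood test with Benjamini-Hochberg adjustment), 0.143% of the genes, of which 20 (0.125%) were higher and 3 (0.0187%) lower in the knockdown line. At an unadjusted p under 0.05 there were 1065 genes (6.64%), where the threshold alone gives 802. All 23 called genes were without overlap between the 5 control and the 5 knockdown libraries, as were 272 genes (1.70%) in all, 1.05% of the genes tested being separate and higher and 0.642% separate and lower in the knockdown line. For the 23 this adds no support, since they were chosen by p in these same libraries. The 23 were 22 protein-coding genes and 1 long noncoding RNA, and 20 of them reached 1 CPM in a group. In bulk RNA, fewer cells with a transcript and less of it per cell cannot be told apart. The count depended on the libraries and the test: it was 12, 11 and 6 without control replicate 1, 3 or 5, 14, 10, 13 and 12 without knockdown replicate 1, 2, 4 or 5, 56 without unstimulated control replicate 1, 150 with DESeq2's Wald test (94 higher and 56 lower) and 0 in the 17 libraries, where 410 genes had an unadjusted p under 0.05. All 23 kept their direction in each of these fits. In the 17 libraries the log2 fold change of PRDX3 was 0.67, that of SLC7A5 0.80 and that of ADAM12 1.01, against 0.81, 1.05 and 1.53 in the full fit, and the smallest adjusted p of any gene was 0.4 (edgeR). Those of CDH5, TINAGL1, UBE2V1 and CYB5R2 were 2.79, 1.04, 0.49 and -1.85, against 3.50, 1.23, 0.63 and -2.16. Of the 23, RGS4, MGARP, KLF17, MATK and LINC00987 had larger differences in the 17 libraries, and the others smaller ones. The median log2 difference of all genes was -0.01.

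**Figure D2:**
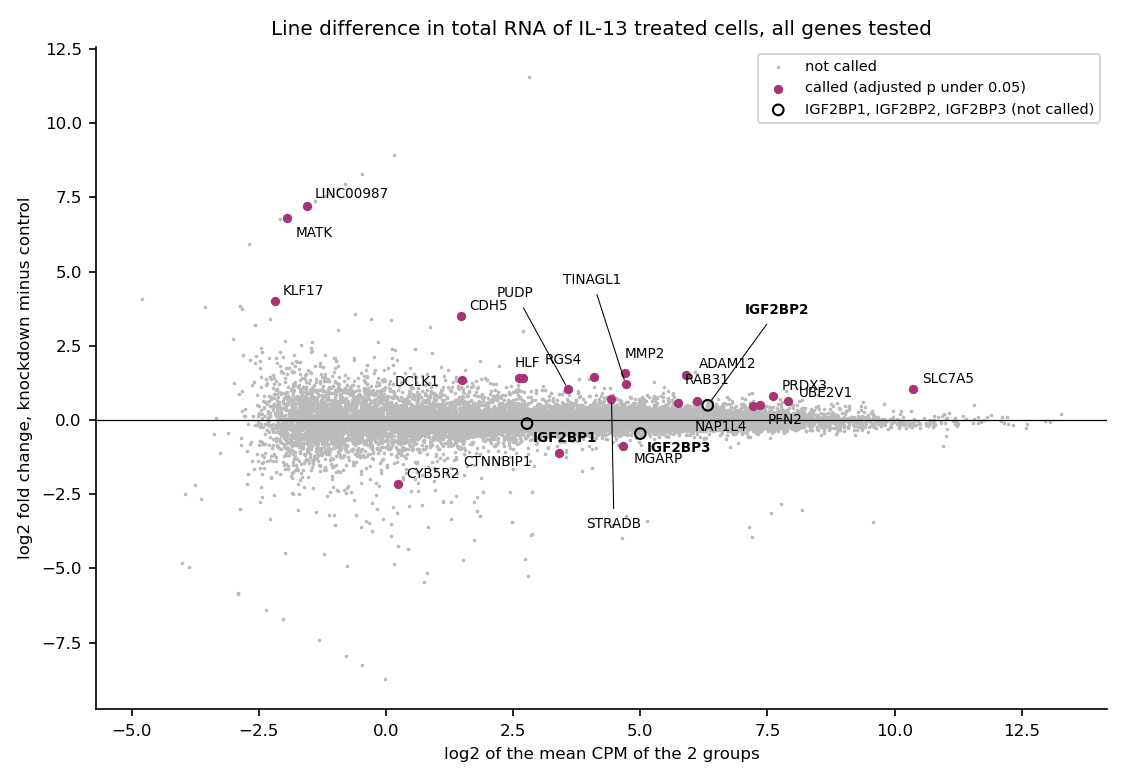
Log2 fold change of the knockdown over the control line with IL-13 against the log2 of the mean CPM, for the 16044 genes tested in input RNA; coloured points are the 23 called genes and open circles the IGF2BP family. Most called genes (20 of 23) lie above 0, the IGF2BP genes are not among them, and the fitted values of LINC00987 and MATK, at 0 in every control library, depend on the prior count.

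SLC7A5, the large neutral amino acid transporter LAT1, measured 887, 1068, 565, 973 and 802 CPM in control and 1634, 1879, 1944, 1896 and 1565 CPM in knockdown libraries. The lowest knockdown library was well above the highest control library. The log2 fold change was 1.05 (SE 0.15, edgeR adjusted p = 0.00315), 2.08-fold, and per length SLC7A5 was also the most abundant called gene, with means of 210 and 467 TPM. SLC3A2, the heavy chain that carries SLC7A5 to the membrane, measured 244, 196, 138, 299 and 247 against 345, 345, 388, 337 and 377 CPM. These groups did not overlap either, but with a log2 difference of 0.67 the gene was not called (edgeR adjusted p = 0.362).

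PRDX3, the mitochondrial peroxidase that removes hydrogen peroxide, had the smallest p of all genes. It measured 124, 158, 128, 156 and 146 CPM in control and 226, 264, 224, 262 and 274 CPM in knockdown libraries. The groups were tight and far apart, with a log2 fold change of 0.81 (SE 0.11, edgeR adjusted p = 0.00271). PUDP, a phosphatase acting on pseudouridine 5'-phosphate, went from 7.01, 7.31, 6.64, 8.44 and 9.21 to 16.3, 16.2, 14.9, 16.8 and 16.1 CPM. The knockdown libraries lay close together, at 16.1 ± 0.701 CPM (SD, n = 5), all of them above the control libraries, and the log2 fold change was 1.06 (SE 0.15, edgeR adjusted p = 0.00315).

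The 3 genes called lower in the knockdown line were CYB5R2, MGARP and CTNNBIP1. CYB5R2, a cytochrome b5 reductase, measured 2.90, 1.10, 1.70, 1.99 and 1.91 CPM in control and 0.350, 0.322, 0.496, 0.319 and 0.672 CPM in knockdown libraries, a log2 fold change of -2.16 (SE 0.37, edgeR adjusted p = 0.0153). MGARP, a mitochondrial protein, measured 31.2, 38.3, 32.8, 30.1 and 30.9 against 16.7, 17.0, 19.4, 16.6 and 19.6 CPM, a log2 fold change of -0.87 (SE 0.17, edgeR adjusted p = 0.0376). CTNNBIP1, an inhibitor of the binding of beta-catenin to TCF factors, measured 15.6, 17.3, 11.4, 9.93 and 18.5 against 5.81, 7.20, 7.26, 8.00 and 4.93 CPM, a log2 fold change of -1.12 (SE 0.22, edgeR adjusted p = 0.0405). In all 3 genes every knockdown library was below every control library. The call of MGARP was lost in each of the 10 fits that left out 1 of the compared libraries, that of CTNNBIP1 in 9 and that of CYB5R2 in 5. MGARP overlaps NDUFC1 on the same strand in the annotation, so a part of its reads could be assigned to either gene.

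CDH5, MMP2, ADAM12 and TINAGL1 were among the 20 genes called higher in the knockdown line. CDH5, the cadherin known from endothelial junctions, measured 0.0934, 0.964, 0.0754, 0.523 and 0.544 CPM in control and 5.37, 2.78, 5.03, 7.37 and 5.15 CPM in knockdown libraries. Every knockdown library held more than the highest control library, with a log2 fold change of 3.50 (SE 0.57, edgeR adjusted p = 0.0104). The summed level of 7 endothelial markers, CDH5 included, was 0.512 to 1.21 TPM in control and 2.08 to 3.23 TPM in knockdown libraries. Of the others, CLDN5 measured 0.161 to 1.01 and 0.25 to 1.41 TPM, and PECAM1, VWF, KDR, TEK and EMCN stayed at or under 0.0383 TPM in all 10 libraries.

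MMP2, a gelatinase that cleaves basement membrane collagen, measured 19.4, 15.7, 9.35, 12.2 and 8.26 CPM in control and 40.9, 25.5, 46.0, 51.3 and 31.5 CPM in knockdown libraries (log2 fold change 1.59, SE 0.31, edgeR adjusted p = 0.0401). ADAM12, a membrane metalloprotease, measured 28.3, 28.1, 17.9, 60.1 and 19.6 against 68.2, 82.6, 100, 73.8 and 120 CPM (log2 fold change 1.53, SE 0.28, edgeR adjusted p = 0.0272). In both genes the lines were separate, although control replicate 4 of ADAM12 came close to the knockdown libraries. TINAGL1, a secreted matrix protein that binds laminins and integrins, measured 14.2, 14.9, 13.0, 20.7 and 15.5 against 39.5, 40.1, 34.4, 24.9 and 44.5 CPM (log2 fold change 1.23, SE 0.20, edgeR adjusted p = 0.0101). Leaving out 1 of the compared libraries lost the call of MMP2 in 9 and of ADAM12 in 7 of 10 fits, and never that of TINAGL1 or CDH5.

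RGS4, which speeds the switching off of Gi and Gq proteins, measured 8.74, 6.55, 11.9, 10.7 and 7.89 CPM in control and 30.8, 25.5, 17.2, 24.0 and 28.2 CPM in knockdown libraries, a log2 fold change of 1.45 (SE 0.20, edgeR adjusted p = 0.00315). DCLK1, a doublecortin-like kinase, measured 1.45, 1.56, 2.07, 1.67 and 1.13 against 2.97, 4.06, 4.71, 3.63 and 4.78 CPM, a log2 fold change of 1.35 (SE 0.22, edgeR adjusted p = 0.0104). Neither gene overlapped: the nearest control and knockdown libraries were at 11.9 and 17.2 CPM for RGS4 and 2.07 and 2.97 CPM for DCLK1. RAB31, a small GTPase of vesicle transport, was 0.65 higher (edgeR adjusted p = 0.0101), between 46.6 and 62.0 CPM in control and 75.9 and 98.5 CPM in knockdown libraries. STRADB, a pseudokinase that binds the kinase STK11, was 0.71 higher (edgeR adjusted p = 0.0272), between 14.8 and 17.1 CPM in control and 24.2 and 28.9 CPM in knockdown libraries. The call of STRADB was lost in 9 of the 10 fits that left out 1 of the compared libraries, those of RAB31 and DCLK1 in 1 each and that of RGS4 in 0.

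UBE2V1, a ubiquitin conjugating enzyme variant that works with UBE2N, PFN2, an actin-binding profilin, and NAP1L4, a histone chaperone, had the smaller differences of abundant genes. They were 0.63, 0.51 and 0.46 higher on the log2 scale (edgeR adjusted p = 0.014, 0.0256 and 0.0485). UBE2V1 lay between 170 and 224 CPM in control and 266 and 331 CPM in knockdown libraries. Leaving out 1 of the compared libraries lost these calls in 2, 7 and 9 of the 10 fits. UBE2V1 shares its exons with a read-through gene, TMEM189-UBE2V1, and PFN2 overlaps ANKUB1 on the same strand, so for these genes the assignment of reads to a gene is uncertain. Other called genes also overlap an annotated gene on the same strand. Among them are LINC00987 with AC010175.1, TINAGL1 with LINC01226, PUDP with AC073583.1 and NAP1L4 with SNORA54, where the same uncertainty can apply.

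**Figure D3:**
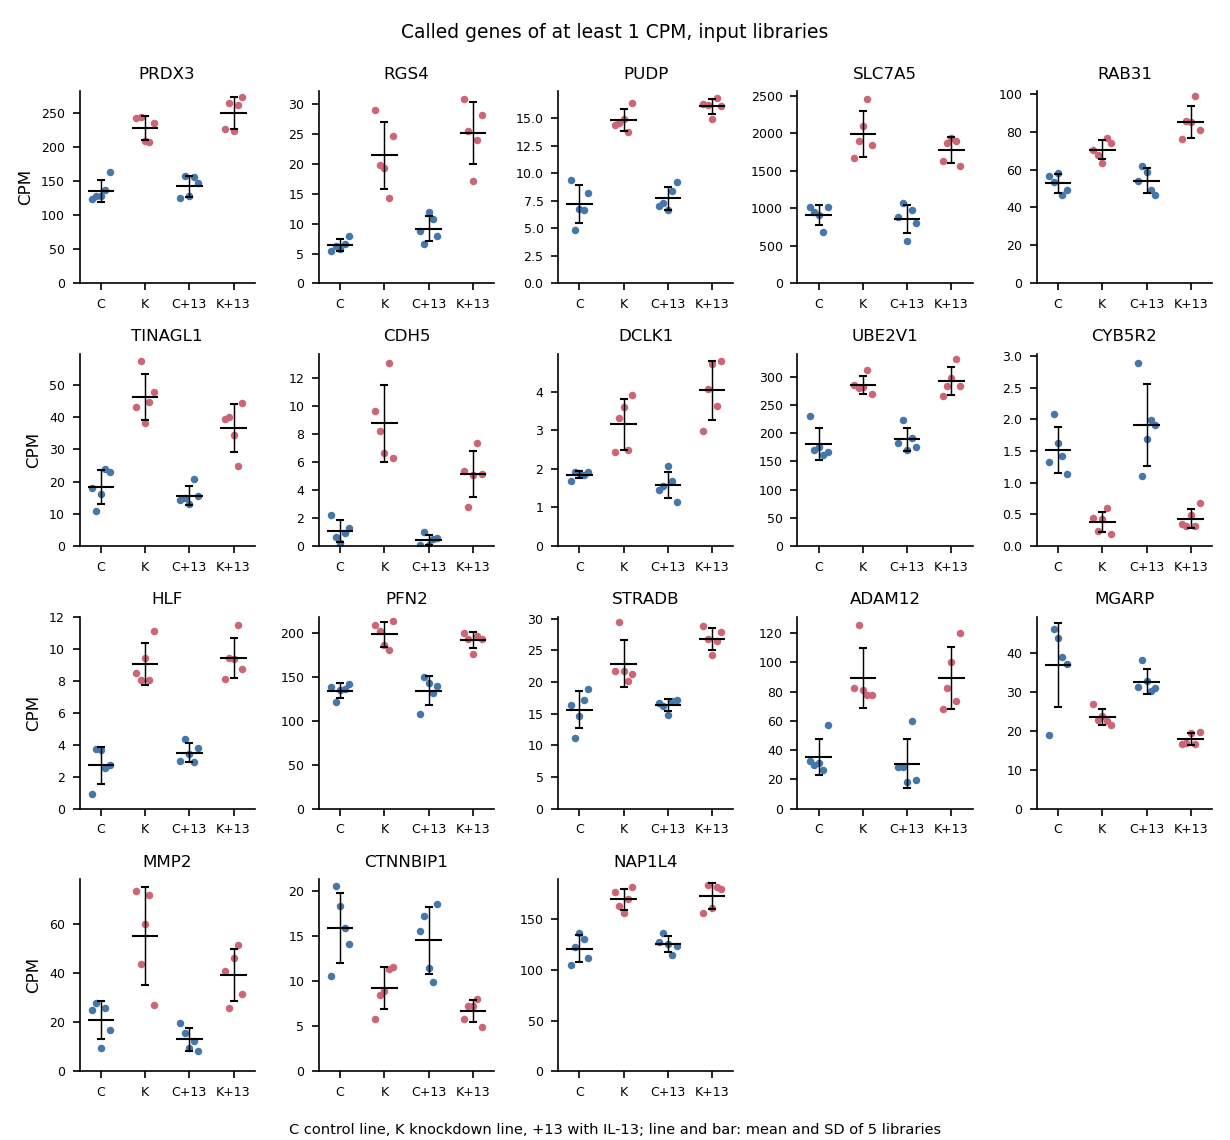
CPM of 18 of the 20 called genes that reached 1 CPM in a group, in the 20 input libraries; each point is 1 library, C is the control line, K the knockdown line and +13 marks IL-13, and the line and bar are the mean and SD of 5 libraries. With IL-13 the lines do not overlap in any panel, and CYB5R2, MGARP and CTNNBIP1 are the genes lower in the knockdown line.

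Among transcription factors, HLF, a PAR bZIP factor of circadian output, was called at a level above 1 CPM. HLF measured 2.99, 4.32, 3.43, 2.93 and 3.81 CPM in control and 8.13, 9.41, 9.35, 11.5 and 8.74 CPM in knockdown libraries, a log2 fold change of 1.43 (SE 0.26, edgeR adjusted p = 0.0217). The lines were separate, and the call was lost in 7 of 10 fits without 1 of the compared libraries. The called genes under 1 CPM, named after their values were seen, were the zinc finger factor KLF17, the kinase MATK and the noncoding RNA LINC00987. KLF17 had 3 counts over the 5 control libraries and 55 over the 5 knockdown libraries, a ratio of 20.5 with an exact 95% interval of 6.65 to 102 (edgeR adjusted p = 0.0138). LINC00987 had 0 counts in every control library and 91 in the knockdown libraries, at least 6.00-fold higher against a floor of 3 counts per library (edgeR adjusted p = 0.0217). MATK had 0 and 63 counts, at least 4.60-fold higher against the same floor (edgeR adjusted p = 0.0323). The call of MATK was lost in all 10 fits that left out 1 of the compared libraries (edgeR adjusted p = 0.0548 to 0.0866), that of LINC00987 in 6 and that of KLF17 in 1. These intervals and floors cover counting error only. In control libraries with or without IL-13, KLF17, LINC00987 and MATK reached at most 0.296, 0.117 and 0.156 CPM. They passed the expression filter through the knockdown libraries, so being higher there was a condition of their test.

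Promoters from RefSeq (GRCh38.p14, 250 bases before to 50 after the start) were found for 18 of the 23 called genes and searched on both strands for the paired half-sites that STAT factors bind. TTCNNNNGAA, the spacing of STAT6, was in 1 of the 18 promoters (5.56%) and in 6.44% of 35116 promoters. TTCNNNGAA, the spacing of other STAT factors, was also in 1 of the 18 and in 7.66% of all. With 1 match among 18, a difference from all promoters could not be seen in either direction. The 18 were counted by gene and the 35116 by promoter entry. The promoters with a match, of HLF (chr17:55265972-55266271, plus strand) and RGS4 (chr1:163069004-163069303, plus strand), are printed to show where the letters lie, with the match in capitals.
HLF: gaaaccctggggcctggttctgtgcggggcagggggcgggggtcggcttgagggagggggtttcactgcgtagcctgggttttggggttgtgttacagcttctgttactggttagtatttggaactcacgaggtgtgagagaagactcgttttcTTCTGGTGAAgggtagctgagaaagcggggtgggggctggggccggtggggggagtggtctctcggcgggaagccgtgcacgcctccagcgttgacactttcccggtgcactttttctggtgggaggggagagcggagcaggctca
RGS4: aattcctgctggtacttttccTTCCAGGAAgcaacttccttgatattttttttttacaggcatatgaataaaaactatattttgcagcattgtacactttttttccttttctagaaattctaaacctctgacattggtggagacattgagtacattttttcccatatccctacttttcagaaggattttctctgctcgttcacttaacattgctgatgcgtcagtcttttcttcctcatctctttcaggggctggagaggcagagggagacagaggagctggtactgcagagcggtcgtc

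The line difference was then read in unstimulated input libraries, which the IL-13 comparison did not use, although both shared 1 estimate of the spread. All 23 genes had the same direction without IL-13, all 23 had an unadjusted edgeR p under 0.05 there (largest 0.0135), which 6.35% of all genes had, and 12 were called. For KLF17, LINC00987 and MATK the direction adds no support, since they passed the expression filter through the knockdown libraries. Those 12 were 52.2% of the genes called with IL-13 and 66.7% of the 18 called without it (0.112% of genes tested). In 19 of the 23 genes the unstimulated libraries did not overlap either, against 1.38% of all genes. The median absolute log2 fold change of the 23 was 1.23 with and 1.13 without IL-13. PRDX3 measured 136 ± 16.3 and 227 ± 18.0 CPM (SD, n = 5) without IL-13, SLC7A5 915 ± 136 and 1995 ± 304 CPM, and CDH5 1.06 ± 0.759 and 8.74 ± 2.75 CPM. RAB31, DCLK1, STRADB, ADAM12, MMP2, MGARP and CTNNBIP1, and the genes under 1 CPM, were among those called with IL-13 and not without it.

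The dependence of the line difference on IL-13 was tested as an interaction. With edgeR 0 of 16044 genes were called for it, 237 (1.48%) had an unadjusted p under 0.05, and DESeq2's Wald test called 6. Of the 23 genes, KLF17 had an unadjusted interaction p under 0.05 (0.00681 by edgeR), with 0.0221 and 0.418 CPM with IL-13 and 0.196 and 0.553 CPM without. In polysome RNA of IL-13 treated cells, fitted alone, 21 of the 23 genes were tested and all 21 had the same direction. Of these, 18 had an unadjusted edgeR p under 0.05, against 4.78% of 14582 genes, and edgeR called 0 genes there. The labels do not say whether input and polysome libraries came from the same cultures. CDH5 measured 0.199 and 3.23 CPM in polysome RNA of control and knockdown cells, MMP2 9.57 and 36.5 CPM, and PRDX3 402 and 757 CPM.

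**Figure D4:**
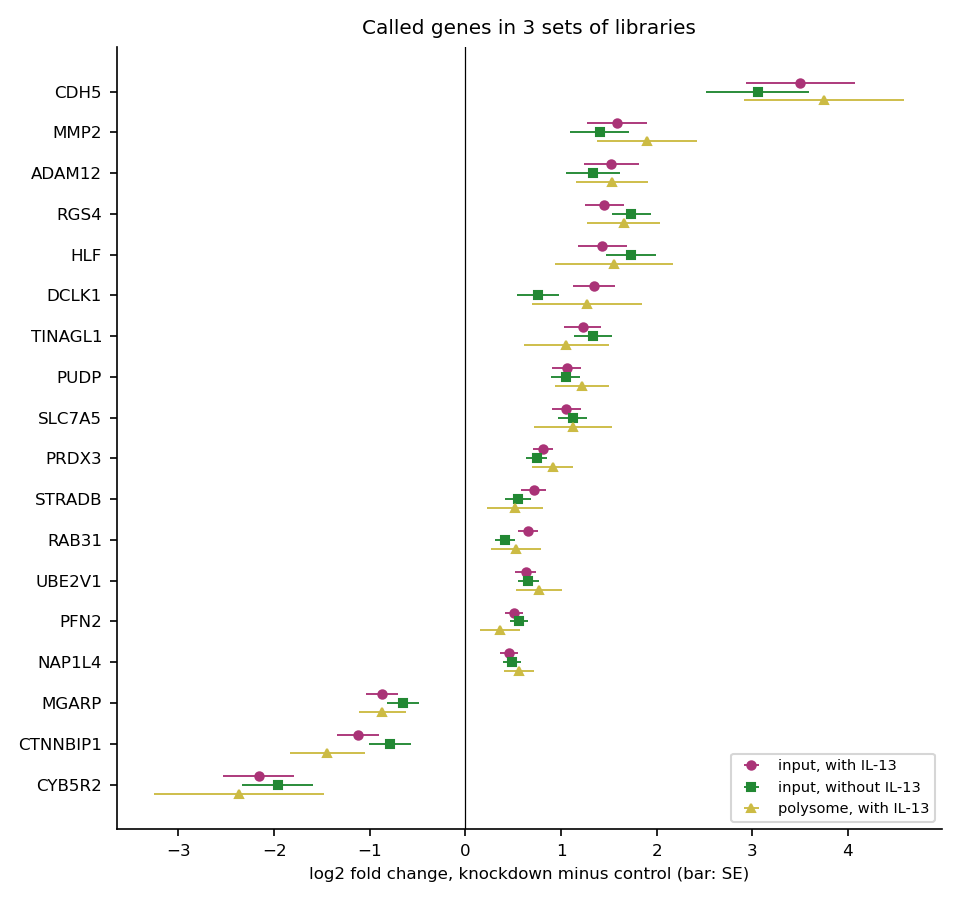
Log2 fold change of the knockdown over the control line, with its SE, for 18 of the 20 called genes that reached 1 CPM, in input RNA with IL-13, input RNA without IL-13 and polysome RNA with IL-13. All 18 genes lie on the same side of 0 in each set, and the genes were chosen from the first.

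None of the 7 IL-13 pathway genes chosen for description was called between the lines. Without IL-13, CISH measured 2.19 CPM in control and 2.00 CPM in knockdown cells, and with IL-13 it measured 34.9 ± 8.39 and 29.6 ± 3.60 CPM (SD, n = 5). SOCS1 measured 11.4 ± 5.47 and 9.93 ± 1.81 CPM with IL-13, and CCL26 13.1 ± 2.01 and 15.0 ± 1.34 CPM. HSD3B1, a steroid dehydrogenase induced by IL-13, measured 1.54, 8.35, 2.34, 2.90 and 4.49 CPM in control and 5.99, 4.79, 6.59, 6.47 and 5.30 CPM in knockdown libraries, a log2 difference of 0.57 (SE 0.45, edgeR adjusted p = 0.94) with overlap. The adjusted p of CISH, SOCS1 and CCL26 was 0.926, 0.98 and 0.987 in edgeR, and the log2 difference of SOCS1 went from -0.20 to 0.13 without control replicate 1 and to 0.27 in the 17 libraries. The log2 differences of IL4R, IL13RA1 and STAT6 were 0.02, 0.01 and 0.18, with SEs of 0.27, 0.16 and 0.12, and those of IL4R and IL13RA1 turned below 0 in the 17 libraries (-0.064 and -0.12). TGM2, a transglutaminase induced by IL-13, varied widely, with 25.2, 62.9, 36.7, 29.5 and 9.62 CPM in control and 124, 23.1, 51.7, 247 and 63.6 CPM in knockdown libraries, with overlap and an edgeR adjusted p of 0.812.

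Of 13 airway genes induced by IL-13 that were tested, 0 were called and 0 had an unadjusted edgeR p under 0.05, with a median log2 difference of 0.19. Of 25 receptor and signalling genes 0 were called, with a median of 0.07, and the kinase JAK1 was the only one with an unadjusted p under 0.05 (118 ± 30.1 and 155 ± 23.1 CPM, SD, n = 5, edgeR adjusted p = 0.677). Neither the 25 IGF2BP target mRNAs nor the 20 genes of the N6-methyladenosine machinery held a gene with an unadjusted edgeR p under 0.05, and their medians were 0.06 and 0.02. CD44, an IGF2BP target, measured 106 ± 42.8 and 154 ± 47.4 CPM (SD, n = 5, edgeR adjusted p = 0.804), with overlap. For comparison, 588 genes (3.66%) were higher and 477 (2.97%) lower in the knockdown line at an unadjusted p under 0.05.

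Of 51 matrix and integrin genes tested, 2 were called higher, MMP2 among them, and 0 lower. At an unadjusted edgeR p under 0.05, 8 were higher and 0 lower, and the median log2 difference was 0.29. Of all genes tested, 0.125% were called higher and 0.0187% lower, and 3.66% were higher and 2.97% lower at an unadjusted p under 0.05. ITGA4, an integrin alpha chain for fibronectin and VCAM1, measured 1.78, 1.33, 2.49, 2.33 and 2.09 CPM in control and 6.60, 5.43, 2.05, 4.00 and 8.22 CPM in knockdown libraries, with overlap at knockdown replicate 3 and an edgeR adjusted p of 0.171. The median ranged from 0.16 to 0.50 when 1 of the compared libraries was left out. Of 10 fibroblast markers 5 were tested and 0 called, and their summed level was 105 to 326 TPM in control and 175 to 273 TPM in knockdown libraries. The part of other cell types in these values was not tested.

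Of 24 genes of the ATF4 amino acid response tested, SLC7A5 was called higher and 0 were called lower. Most members went the other way: 20 of the 24 were below 0, where 8233 of all 16044 genes were, with a median of -0.22. At an unadjusted edgeR p under 0.05, 3 members were lower and 2 higher, SLC7A5 and SLC3A2. The lines did not overlap in 2 higher members, again SLC7A5 and SLC3A2, and in 2 lower members. Of all genes tested, 1.05% were separate and higher and 0.642% separate and lower. Over all genes, 0.125% were called higher and 0.0187% lower. At an unadjusted p under 0.05, 3.66% of all genes were higher and 2.97% lower. SLC7A11, the cystine transporter, measured 12.4, 11.1, 4.75, 13.5 and 6.26 CPM in control and 3.89, 3.54, 6.76, 3.86 and 3.51 CPM in knockdown libraries, with overlap (log2 difference -1.15, SE 0.40, edgeR adjusted p = 0.442).

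Of 32 RGS and G protein genes tested, RGS4 was called, 5 were higher and 1 lower at an unadjusted edgeR p under 0.05, and the median was 0.04. The shares of all genes were 0.125% for a call in the higher direction, and 3.66% higher and 2.97% lower at an unadjusted p under 0.05. LPAR1, a receptor for lysophosphatidic acid, measured 12.5, 15.8, 15.1, 17.4 and 8.26 against 20.1, 20.9, 22.8, 24.7 and 25.5 CPM, without overlap (log2 difference 0.72, SE 0.20, edgeR adjusted p = 0.194). S1PR1, a receptor for sphingosine 1-phosphate, measured 7.71 ± 3.04 and 14.2 ± 4.54 CPM (SD, n = 5, edgeR adjusted p = 0.33), with overlap.

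Of 35 epithelial and mesenchymal genes tested 0 were called, with a median of 0.12. NKX2-1, the lung lineage homeobox factor, was low in both lines, with 1.26, 0.665, 0.415, 0.706 and 1.59 CPM in control and 0, 0.0402, 0.177, 0.116 and 0 CPM in knockdown libraries, without overlap (log2 difference -3.55, SE 0.79, edgeR adjusted p = 0.0972). SNAI2, a repressor of epithelial genes, measured 1.39 ± 0.302 and 2.97 ± 0.602 CPM (SD, n = 5), without overlap, and was not called (edgeR adjusted p = 0.286). CLMP, a junctional adhesion protein, measured 10.8 ± 3.30 and 23.2 ± 10.1 CPM (SD, n = 5), with overlap and an edgeR adjusted p of 0.175.

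The next lists held 0 called genes. Of 79 cytosolic ribosomal protein genes 69 were below 0 with a median of -0.14, and of 32 cholesterol and fatty acid synthesis genes 27 were below 0 with a median of -0.19, where 8233 of all 16044 genes were below 0. When 1 of the compared libraries was left out, the ribosomal median ran from -0.21 without knockdown replicate 1 to -0.03 without control replicate 3, and the cholesterol median from -0.31 without knockdown replicate 5 to -0.08 without control replicate 4. The medians of 55 cell cycle, 35 interferon-stimulated, 18 NF-kB and cytokine, 28 immediate early, 21 focal adhesion and 13 mitochondrially encoded genes were -0.06, -0.02, 0.10, -0.00, 0.11 and 0.11. CDKN1A, the cyclin-dependent kinase inhibitor p21, measured 583, 432, 589, 559 and 508 CPM in control and 415, 333, 359, 364 and 438 CPM in knockdown libraries, with overlap between control replicate 2 and knockdown replicate 5 (log2 difference -0.49, SE 0.12, edgeR adjusted p = 0.154). IFITM3 and USP18 were the interferon-stimulated genes with an unadjusted p under 0.05, at -0.39 and -0.43 on the log2 scale (edgeR adjusted p = 0.56 and 0.679). Of 7 nuclear long noncoding RNAs 4 were tested and 0 called: MALAT1 measured 68.8 ± 29.5 and 55.0 ± 4.07 CPM (SD, n = 5), NEAT1 76.1 ± 18.8 and 85.3 ± 35.2 CPM, and both overlapped. The log2 difference of MALAT1 was -0.32 and turned to 0.15 in the 17 libraries, and that of NEAT1 was 0.17 and turned to -0.09 without knockdown replicate 3. GAS5, a host gene of small nucleolar RNAs, measured 45.0 ± 2.80 and 55.8 ± 4.48 CPM (SD, n = 5), without overlap (edgeR adjusted p = 0.873). Of 8 genes that earlier work on these libraries had called, RGS4, PUDP and MATK were called here, which is not independent evidence.

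**Figure D5:**
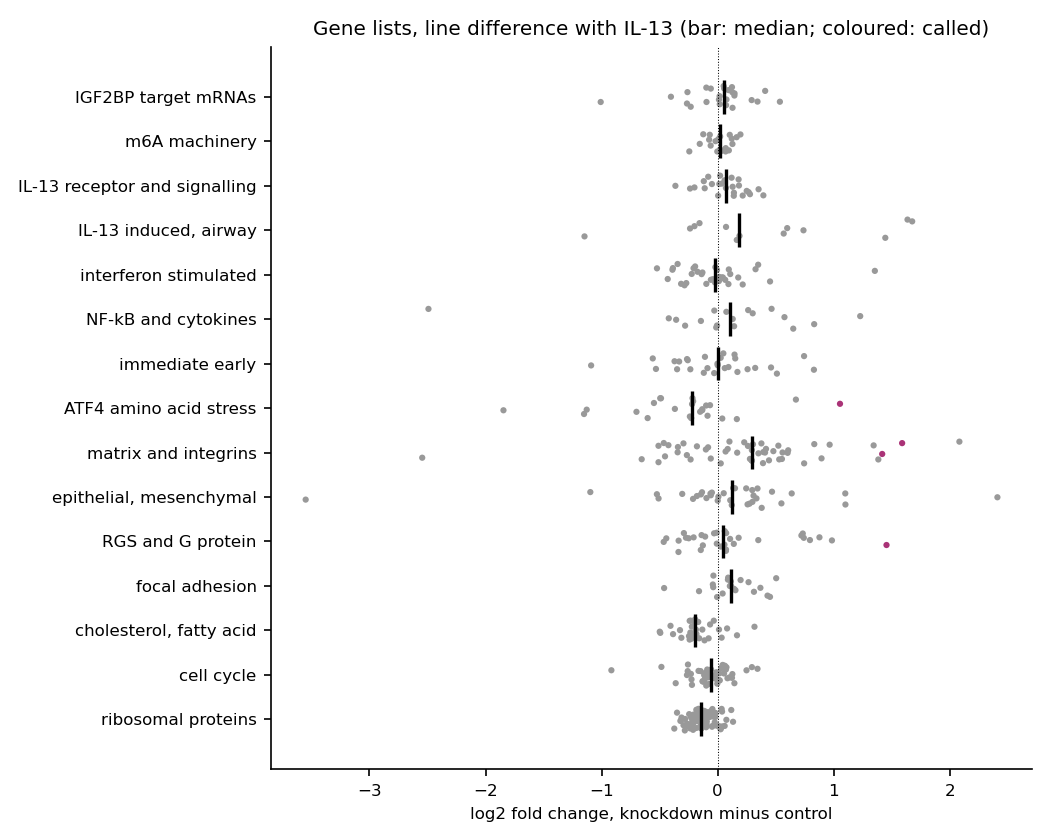
Log2 fold change of the knockdown over the control line with IL-13 for the tested members of 15 gene lists; each point is 1 gene, the bar is the list's median, coloured points are called genes and vertical jitter only separates points. The called members include SLC7A5, MMP2 and RGS4, and the medians run from -0.22 to 0.29.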

How the data were processed

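Total RNA of 20 input libraries (4 groups of 5) was analysed, with 20 polysome libraries fitted apart. The deposited table gave 62263 genes with estimated counts per library, which the submitters' processing notes link to Trimmomatic, Salmon, MultiQC and DESeq2 without versions. The deposited table also gave TPM, scaled by the authors for length and depth per the file headers, and used here for levels between genes; its rows sum to less than a full set per library. The genome build and annotation are not given in the sources used here. Symbols were matched for 62246 gene IDs, and gene types and chromosomes came from GENCODE. The design had assumed counts, and the estimated counts were rounded. filterByExpr kept 16044 genes, holding at least 99.9% of each library's counts. CPM used TMM scaling. edgeR 4.0.16 in R 4.3.3 fitted 1 mean per group with 16 residual degrees of freedom (common biological coefficient of variation 0.332), and genes were called at a Benjamini-Hochberg adjusted p under 0.05. Single genes of the IGF2BP family had two-sided exact permutation tests on log2(CPM + 1). No pair of replicates agreed within sampling noise (lowest chi-square per degree of freedom 23.2). On simulated data for this comparison, 54.5% of 200 genes changed 2-fold (15690 tested) and 78% of 200 changed 4-fold (15674 tested) were recovered, with 7.63% and 5.45% of calls false. The simulation drew each gene independently around 1 mean over all 20 input libraries. It held no deviations shared by many genes of a library, so these rates may not hold for the real libraries.

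Genes named were the IGF2BP family, 7 IL-13 pathway genes, called genes of at least 1 CPM, and up to 3 members per list, called first and then by p. Some genes that met this rule are not reported here, and the counts include them. The members and the 19 lists were chosen with earlier results of these data known. Alternatives were DESeq2 1.42.0, its size factors, other filters, all 40 or only 10 libraries, deposited TPM, a pseudocount of 0.1, the replicate block and leaving out single libraries. The fit of 17 libraries without control replicates 1, 3 and 5 was chosen after seeing the data.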

Additional observations from a re-analysis of the deposited data

Results flagged for a closer look

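In groups of 5 libraries with IL-13, 8 of the 160 group values examined had 1 library far from the other 4 (gap over range above the critical value of Dixon's test), and chance gives 8; 7 of them are given here. Among called genes, ADAM12 measured 60.1 CPM in control replicate 4 and 17.9 to 28.3 CPM in the other control libraries. PFN2 measured 176 CPM in knockdown replicate 3 and 193 to 199.6 CPM in the others. Among genes that were not called, FOS measured 9.86 CPM in control replicate 1 (others 0.641 to 2.73), CCND3 106.8 CPM in control replicate 2 (others 133 to 143.5) and RPS24 1212 CPM in control replicate 3 (others 522 to 708). IL4R measured 35.3 CPM in knockdown replicate 5 (others 22.6 to 25.3), and SLC7A11 6.77 CPM in knockdown replicate 3 (others 3.51 to 3.89).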

How the results depend on the processing

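The number of genes called between the lines with IL-13 (23) was 150 with DESeq2's Wald test (94 higher, 56 lower), 15 with only the 10 libraries compared, 13 with the replicate block, and 0 with all 40 libraries or with the 17 libraries. Leaving out 1 of the 10 compared libraries gave between 6 and 22, and leaving out unstimulated control replicate 1 gave 56. The other unstimulated libraries were not left out for this comparison. With DESeq2's Wald test and without unstimulated control replicate 1, all 23 genes were among those called, and with the replicate block 11 were. The number called without IL-13 (18) was 105 with DESeq2's Wald test, 2 with all 40 libraries, 11 with only the libraries compared, and 9 to 33 when 1 library was left out. The interaction had 0 calls except with DESeq2's Wald test (6). Control and knockdown libraries of the same number with IL-13 had correlations of -0.311, -0.099, -0.315, -0.308 and 0.025 of their deviations from group means. No library with IL-13 correlated best with its own number. Deviations from means of 5 libraries cannot show whether the replicate numbers mark pairs or batches, which was not settled. Under the block, IGF2BP2 (0.49) had an adjusted exact p of 0.0938, where 5 signs cannot give a p below 0.0625.

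The difference of IGF2BP1 turned to 0.17 on deposited TPM, and ran from -0.17 to 0.15 when 1 library was left out, that of IGF2BP2 from 0.43 to 0.55 and that of IGF2BP3 from -0.58 to -0.34. In the edgeR fit without 1 library, IGF2BP1 turned to 0.18 and SOCS1 to 0.13 without control replicate 1, and NEAT1 to -0.0895 without knockdown replicate 3 (range to 0.28). IL4R ran from -0.11 to 0.17 and IL13RA1 from -0.0728 to 0.11, each below 0 in 4 of the 10 fits. In the 17 libraries SOCS1 (0.27), IL4R (-0.064), IL13RA1 (-0.12), NFKB1 (-0.014), MT-ND6 (0.14), MT-ND4L (-0.0702), MT-ND1 (-0.0703) and MALAT1 (0.15) changed sign. List medians without 1 library ran from -0.27 to 0.18 for the IGF2BP family, 0.15 to 0.36 for IL-13 induced genes, 0.041 to 0.18 for epithelial and mesenchymal genes, and 0.73 to 1.02 for 8 genes that earlier work on these data had called. The cause was not tested.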

Other observations

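Beyond the called genes, some genes separated the lines in both treatments. There were 272 genes without overlap with IL-13 and 222 (1.38%) without overlap in unstimulated cells, and 49 were in both sets and in the same direction (18.0% of the first and 22.1% of the second), while 0 were in opposite directions. Of the 49, 19 were called with IL-13, and of the other 30, 21 were higher and 9 lower in the knockdown line. The genes named next were chosen after their values were seen. None of them was called with IL-13. SEMA7A, a membrane-anchored semaphorin, measured 6.69 ± 1.13 and 11.7 ± 1.55 CPM in control and knockdown libraries with IL-13 (SD, n = 5, edgeR adjusted p = 0.0543), and NRP2, a receptor of semaphorins and VEGF, 2.09 ± 0.977 and 5.66 ± 2.06 CPM (edgeR adjusted p = 0.154). AFDN, a scaffold of cell junctions, measured 52.3 ± 9.08 and 82.8 ± 12.5 CPM (edgeR adjusted p = 0.154), and CAV1, the coat protein of caveolae, 437 ± 59.9 and 610 ± 37.8 CPM (edgeR adjusted p = 0.437). IL31RA, a receptor chain for the type 2 cytokine IL-31, measured 3.41 ± 1.23 and 7.64 ± 1.24 CPM with IL-13 (edgeR adjusted p = 0.0639) and 3.46 ± 1.08 and 7.16 ± 1.28 CPM without. Lower in the knockdown line were HES1, a Notch target repressor (19.0 ± 7.46 and 9.71 ± 1.63 CPM, edgeR adjusted p = 0.391), and PHGDH, the first enzyme of serine synthesis (226 ± 37.0 and 149 ± 15.4 CPM, edgeR adjusted p = 0.497).

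Of 34 tested genes of small structured RNAs, 30 were below 0 in the line difference with IL-13, with a median log2 difference of -3.41, and 23 had an unadjusted edgeR p under 0.05, while 0 were called. In the 17 libraries without control replicates 1, 3 and 5, 9 of 34 were below 0 and the median was 0.34. Those 3 libraries were left out for their high share of these same RNAs, so this change follows from the choice. RN7SL1 measured 1052, 497 and 268 CPM in those control libraries and 25.1 to 96.6 CPM in the other 7. Among the unstimulated libraries knockdown replicate 1 held the most, 0.227% of its counts.

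Genes of chromosome 19 had the lowest median log2 difference of any nuclear chromosome, -0.10 over 1153 genes, with 33.2% of them above 0. Without IL-13 the median was -0.08, with 35.0% above 0. The SD between libraries of that median was 0.087.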
